A study of Homo sapiens with 3 samples.

Results

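Cadherins are membrane proteins whose extracellular repeats bind calcium and hold neighbouring cells together. Classical cadherins carry a cytoplasmic tail that binds catenins and so ties the adherens junction to actin, and a switch from E-cadherin (CDH1) to N-cadherin (CDH2) is a known feature of invasive carcinoma. Protocadherins share the extracellular repeats but lack that catenin-binding tail and are best known from the nervous system, where the genes clustered on chromosome 5 give neurons different surface identities.

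The genes described here are all protein-coding genes of the GRCh38.p14 (hg38) gene table whose symbol is CDH followed by digits or begins with PCDH. There were 89 of them among 20037 protein-coding genes: 5 type I and 13 type II classical cadherins, 5 other cadherins, 13 protocadherins outside the clusters, and 53 in the alpha, beta and gamma clusters of chromosome 5. They were chosen by symbol and no measured value entered the rule, though earlier results of these data were known. Peaks were read from chromatin immunoprecipitation and sequencing (ChIP-seq) of histone H2A acetylated at lysine 130 in UM-UC-3 (labelled UMUC3), an established human bladder carcinoma line. One group, smoke, was cells given 10% cigarette smoke medium for 3 days, and the other, air, was air-exposed cells. Each group had 1 library, and 1 input library was not analysed here. The text on treatment with smoke medium stands on every sample, the air sample too, so the groups rest on the treatment label and the design text. Both groups are the same line in serum-containing medium, with no other agent or genetic change named. Peak lists hold no expression values, so the labelled cell type could not be checked against its markers, and a peak says nothing of whether a gene was transcribed.

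The smoke list held 23975 peaks and the air list 27010, so smoke peaks made up 47.0% of all peaks. Read depth is unknown, since the lists carry no totals. Each group has a single library, so the differences between smoke and air cannot be set against a spread between replicates, and p-values were not calculated. Intervals in brackets are exact 95% intervals, Poisson for a count or a count per Mb and binomial for a share. They cover counting error only. A peak was assigned to a gene when it overlapped the gene's span or the 1 kb on either side, and densities are peaks per Mb of that extended span.

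The 89 genes together carried peaks at the density usual for protein-coding genes, and smoke and air differed little. Their extended spans covered 12.5 Mb once overlaps were merged and held 115 smoke and 112 air peaks. That is 9.22 smoke peaks per Mb (7.61 to 11.1) and 8.98 air peaks per Mb (7.39 to 10.8). All protein-coding genes had 8.07 smoke and 9.22 air peaks per Mb. Smoke peaks were 50.7% of the peaks over the 89 genes (44.0 to 57.3), an interval that holds the 47.0% of the whole lists.

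At least 1 smoke peak lay at 54 of the 89 genes and at least 1 air peak at 38, where 24.2% and 25.8% of all protein-coding genes had one. The order turned when only peaks with a −log10 q of at least 1.3 were counted. Then 27 genes had a smoke peak and 36 an air peak, against 14.4% and 19.3% of all protein-coding genes. The 89 genes are long, with a median span of 119 kb against 24.1 kb for all protein-coding genes. Longer genes more often have a peak: at 50 to 200 kb, 48.6% of all protein-coding genes had a listed smoke peak and 50.4% a listed air peak. With all listed peaks, those of both lists lay at 30 genes (14.6% of all protein-coding genes), smoke peaks alone at 24 (9.55%) and air peaks alone at 8 (11.2%). Most of that excess of genes with smoke peaks alone was 1 locus counted many times. The 22 gamma protocadherins of chromosome 5 share one end, so their spans are nested. Of the 2 smoke peaks in this cluster, 1 touched 20 genes (−log10 q 0.721) and the other 6 of the same genes (−log10 q 1.21). Neither reached a −log10 q of 1.3. Of the 30 genes with peaks of both lists, 13 were alpha protocadherins, whose nested spans share 3 smoke and 3 air peaks. Outside the clusters 19 of 36 genes had a smoke peak and 22 an air peak, and 16 had both. Smoke peaks without air peaks lay at 3 of the 36 and the reverse at 6. Peak numbers were equal in the 2 lists at 18 of these 36 genes, 11 of which had no peak at all. Smoke had more peaks at 10 genes and air at 8, and the largest difference was 3 peaks.

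**Figure D1:**
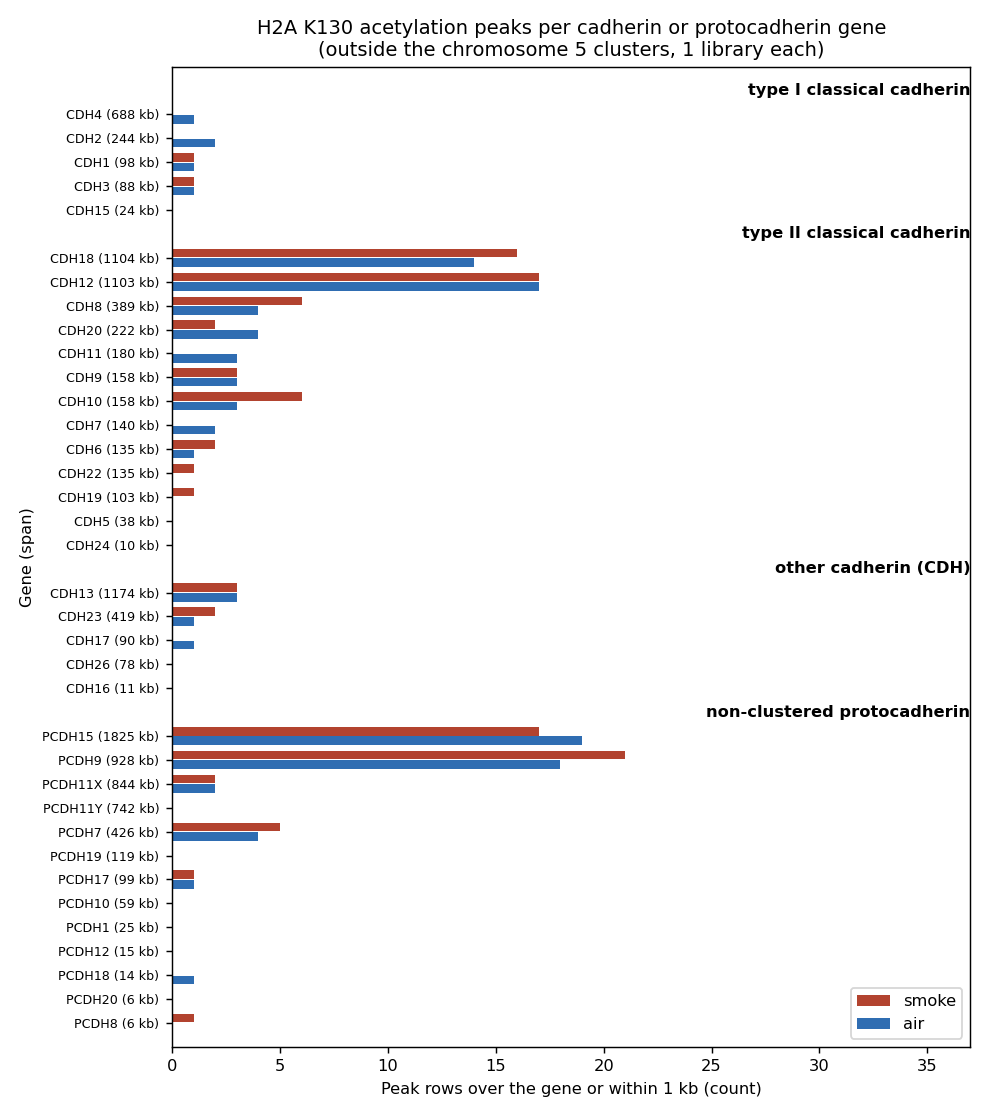
Number of peaks (x axis) over each cadherin or protocadherin gene outside the chromosome 5 clusters (y axis, span in kb), with smoke in red and air in blue, from 1 library each and therefore without error bars. PCDH9, PCDH15, CDH12 and CDH18 hold 14 to 21 peaks per list, and no other gene holds more than 6.

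Of the 5 type I classical cadherins, none held more than 2 peaks of a list. Together they had 2 smoke peaks, 1.73 per Mb (0.210 to 6.27), and 5 air peaks, 4.34 per Mb (1.41 to 10.1). The 2 densities had overlapping intervals. CDH4 spans 688 kb of the 1.15 Mb covered and held 1 air peak and no smoke peak. It thus weighs most in both densities, and they do not describe each type I gene. CDH1, which encodes E-cadherin of epithelial junctions and lies at chr16:68737292-68835537, had 1 peak of each list. Its smoke peak (chr16:68773015-68773301) had a fold of 6.10 with −log10 q 3.73, ranking 168 in the smoke list. Its air peak (chr16:68775140-68775295) had a fold of 5.38 with −log10 q 2.80, ranking 975. The 2 CDH1 peaks did not overlap and lay 1839 bp apart inside the gene. Both stand among the strongest peaks of this family. The fold and −log10 q of a peak are the authors' values, and ranks in lists of different length show no change.

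CDH2, encoding N-cadherin of neural and mesenchymal cells, lies at chr18:27932879-28177130 and had 0 smoke and 2 air peaks. The air peaks had folds of 4.64 and 4.06, and the nearest smoke peak to either was 365 kb away. A count of 0 smoke peaks over CDH2 allows up to 15.0 per Mb by the interval, so absence was not shown. CDH3, encoding P-cadherin of basal epithelial layers, had 1 peak of each list, 13.8 kb apart, with folds of 3.63 in smoke and 4.17 in air. CDH4, encoding R-cadherin, spans 688 kb at chr20:61252261-61940617 and held 1 air peak and no smoke peak. That air peak (chr20:61305745-61306111, fold 5.72, −log10 q 3.82) was the strongest air peak over any of the 89 genes and ranked 102 in its list. From there to 1 kb past the far end of CDH4, 636 kb held no peak of either list. CDH15, the M-cadherin gene of muscle, had none.

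The 13 type II classical cadherins held 54 smoke and 51 air peaks, 13.8 per Mb (10.4 to 18.1) and 13.1 per Mb (9.73 to 17.2). Smoke peaks were 51.4% of them (41.5 to 61.3). Peaks of both lists lay at 7 genes, smoke peaks alone at CDH19 and CDH22, air peaks alone at CDH7 and CDH11. No peak lay at CDH5 (VE-cadherin of endothelium) or CDH24. Of all protein-coding genes 14.6% had peaks of both lists, 9.55% smoke peaks alone and 11.2% air peaks alone. Their median span was 24.1 kb, against 158 kb for the type II genes. All 18 classical cadherins together had 56 peaks in each list, 11.1 per Mb (8.37 to 14.4) in both. In that total CDH12 and CDH18 weigh most.

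CDH12 and CDH18, neuronal type II cadherins on the short arm of chromosome 5, held most of those peaks. CDH12 (chr5:21750673-22853344) had 17 smoke and 17 air peaks, 15.4 per Mb (8.96 to 24.6) in both lists. CDH18 (chr5:19471296-20575713) had 16 smoke and 14 air peaks, 14.5 per Mb (8.27 to 23.5) and 12.7 per Mb (6.92 to 21.2). CDH18 held 3 of the 5 strongest smoke peaks of the family, with folds of 6.98, 6.45 and 5.91. The first of them (chr5:20011729-20011969) had a −log10 q of 5.00 and ranked 19 of 23975. The air peak nearest to any of these 3 was 11.9 kb away.

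CDH10, CDH9 and CDH6 follow on the same arm. CDH10 had 6 smoke and 3 air peaks in 158 kb, the largest smoke density of any gene here of 50 kb or more, at 37.5 per Mb (13.8 to 81.7) against 18.8 per Mb in air (3.87 to 54.8). CDH9 had 3 peaks of each list in 158 kb, 18.8 per Mb (3.87 to 54.8). CDH6, the K-cadherin gene first known from kidney, had 2 smoke peaks and 1 air peak. With CDH12 and CDH18 these 5 genes lie in a stretch of 11.9 Mb with 2 other protein-coding genes. Over the 5 genes there were 44 smoke and 38 air peaks, most of the type II total. That is 16.5 smoke peaks per Mb (11.98 to 22.1) and 14.2 air peaks per Mb (10.1 to 19.5). Between the genes there were 12.8 (10.6 to 15.4) and 14.6 (12.2 to 17.3) per Mb. In both lists the intervals over and between the genes overlapped.

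The remaining type II genes are shorter than CDH12 and CDH18, and none held more than 6 peaks of a list. CDH8 on chromosome 16, a neuronal cadherin gene of 389 kb, had 6 smoke and 4 air peaks. That is 15.3 per Mb (5.63 to 33.4) and 10.2 per Mb (2.79 to 26.2). CDH20 on chromosome 18 had 2 smoke and 4 air peaks, 8.91 per Mb (1.08 to 32.2) and 17.8 per Mb (4.86 to 45.65). Its smoke peak at chr18:61484412-61484599 reached fold 5.91 and −log10 q 3.22. CDH11, the OB-cadherin gene of osteoblasts and mesenchyme, had 0 smoke and 3 air peaks in 180 kb. A count of 0 smoke peaks over CDH11 allows up to 20.3 per Mb, above the 16.5 per Mb measured in air, so a difference was not detectable. One CDH11 air peak (chr16:65124545-65124787, fold 4.06) lay just outside the span, with its summit 900 bp from the gene's high-coordinate end.

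**Figure D2:**
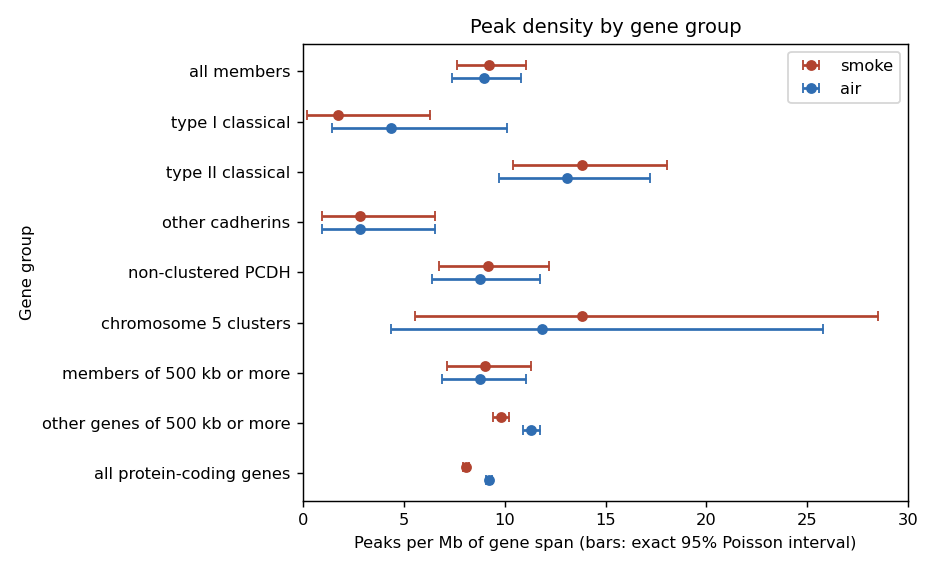
Peaks per Mb of gene span (x axis) in smoke (red) and air (blue) for groups of genes (y axis), with exact 95% Poisson intervals from 1 library each. Type II cadherins lie at 13.8 and 13.1 per Mb, type I cadherins at 1.73 and 4.34 and all protein-coding genes at 8.07 and 9.22. CDH4 makes up 688 kb of the 1.15 Mb of the type I cadherins.

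Genes of 500 kb or more numbered 8: PCDH15, CDH13, CDH18, CDH12, PCDH9, PCDH11X, PCDH11Y and CDH4. They held 76 smoke and 74 air peaks, 9.02 per Mb (7.11 to 11.3) and 8.78 per Mb (6.90 to 11.0). The 307 other protein-coding genes of that size had 9.82 (9.44 to 10.2) and 11.3 (10.9 to 11.7). Of all 315 such genes 96.5% had a smoke peak and 98.4% an air peak, against 6 and 7 of the 8. PCDH11Y had neither, and neither list holds a peak on chromosome Y. Without PCDH11Y the density was 9.90 in smoke (7.80 to 12.4) and 9.64 in air (7.57 to 12.1).

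The long genes differed widely among themselves. PCDH9, a protocadherin gene expressed in brain at chr13:66302834-67230336, had 21 smoke and 18 air peaks, 22.6 per Mb (14.0 to 34.5) and 19.4 per Mb (11.5 to 30.6). With both lists added, 299 of the 307 other long genes had a lower density than PCDH9. PCDH15, whose protein forms the tip links of inner-ear hair cells together with that of CDH23, had 17 smoke and 19 air peaks in 1825 kb. At 9.30 per Mb (5.42 to 14.9) and 10.4 per Mb (6.26 to 16.2) it was near the medians of the other long genes, 9.31 and 10.8. PCDH9, PCDH15, CDH12 and CDH18 together held 61.7% of the smoke and 60.7% of the air peaks of all 89 genes.

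CDH13, CDH4 and PCDH11X were sparse. CDH13 encodes T-cadherin, which is held in the membrane by a lipid anchor in place of a membrane-spanning tail. Its 1174 kb (chr16:82626969-83800640) held 3 smoke and 3 air peaks, 2.55 per Mb (0.526 to 7.46) in each list. CDH12 is of nearly the same length and held 34 peaks in all where CDH13 held 6, and their intervals did not overlap in either list. In CDH13 2 smoke peaks lay towards the low-coordinate end and 1 towards the other, with the 3 air peaks between them. The smallest distance from a smoke to an air peak was 132 kb counting air peaks outside the gene. The 3 smoke peaks all had a fold of 3.76, the median of the whole smoke list and a value shared by many other smoke peaks. PCDH11X, on chromosome X at chrX:91779375-92623230, had 2 peaks of each list, 2.36 per Mb (0.286 to 8.54). PCDH11X and PCDH11Y are near-identical copies. The counts of this pair are uncertain, since the handling of reads that match both is not given in the sources used here. Of the 307 other long genes 11 had a lower density in both lists added than CDH13, 10 lower than PCDH11X and 1 lower than CDH4.

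**Figure D3:**
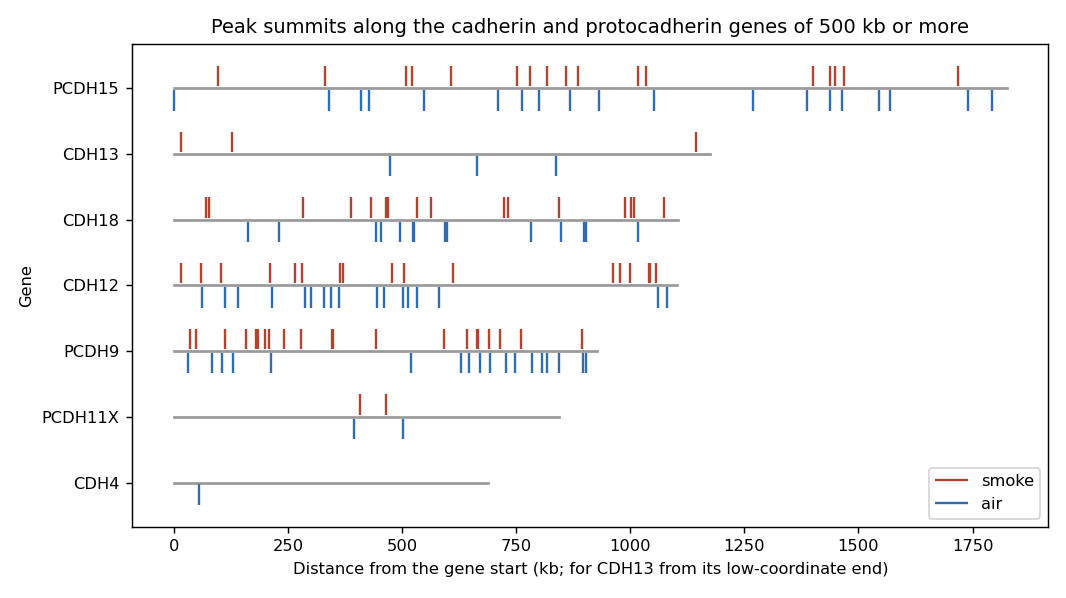
Summits of smoke peaks (red, above the line) and air peaks (blue, below) along 7 genes of 500 kb or more (y axis), by distance from the gene start in kb (x axis); CDH13 is drawn from its low-coordinate end. PCDH9, CDH12, CDH18 and PCDH15 carry peaks along their length, with a wide gap in CDH12, while CDH13 has 3 of each list, PCDH11X 2 of each and CDH4 1 air peak.

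Peaks were spread along the long genes and were not concentrated in the part nearest the start. In the 12 genes of 200 kb or more outside the clusters with a known strand, the first of 5 equal parts of the gene held 17 of 88 summits in smoke (19.3%, 11.7 to 29.1) and 15 of 85 in air (17.6%, 10.2 to 27.4). In the 1144 other genes of that size this part held 20.7% and 20.6%. Such a part is large, so a pile-up within a few kb of the start could not show. Most summits in the 12 genes lay in PCDH9, PCDH15, CDH12 and CDH18. Taken gene by gene, the longest stretch without a peak of either list was 351 kb in CDH12, 31.8% of its extended span. In PCDH9 it was 93.7 kb, 10.1%. CDH12 thus has a large empty stretch despite its high count. In the sparse genes the longest such stretch was 636 kb in CDH4, 395 kb in PCDH11X and 346 kb in CDH13.

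Density over a gene followed density beside it. For the 26 genes of 50 kb or more outside the clusters and chromosome Y, peaks of both lists per Mb over the gene and in the 1 Mb on either side had a Spearman rho of 0.721 and a Pearson r of 0.744 across genes. These points share the same 2 libraries, and genes near each other share their surroundings, so this is a description. PCDH9 had 42.0 peaks per Mb over the gene and 38.5 beside it, CDH12 had 30.8 and 29.0, and CDH13 had 5.10 and 7.50. PCDH11X, also sparse, had 4.73 and 5.50, and CDH4 had 1.45 over the gene and 10.5 beside it. Smoke density was above that of the sides at 14 of the 26 genes and air density at 13. With both lists added, the interval over the gene held the rate beside it at 25 of the 26 genes, in many of them because few peaks make it wide. The exception was CDH4, whose interval of 0.0367 to 8.07 per Mb lay below the 10.5 beside it. That 10.5 rests on 8 smoke and 13 air peaks and has a counting error of its own, which was not included. Among 26 such intervals 1 miss can come from counting error alone, so a difference beyond it was not shown for CDH4. The number of other protein-coding genes within 1 Mb was 0 for PCDH9 and 1 for CDH12, against 23 for CDH13 and 22 for CDH4. For PCDH11X it was 1. The part of gene content, copy number and base composition in these densities was not tested.

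**Figure D4:**
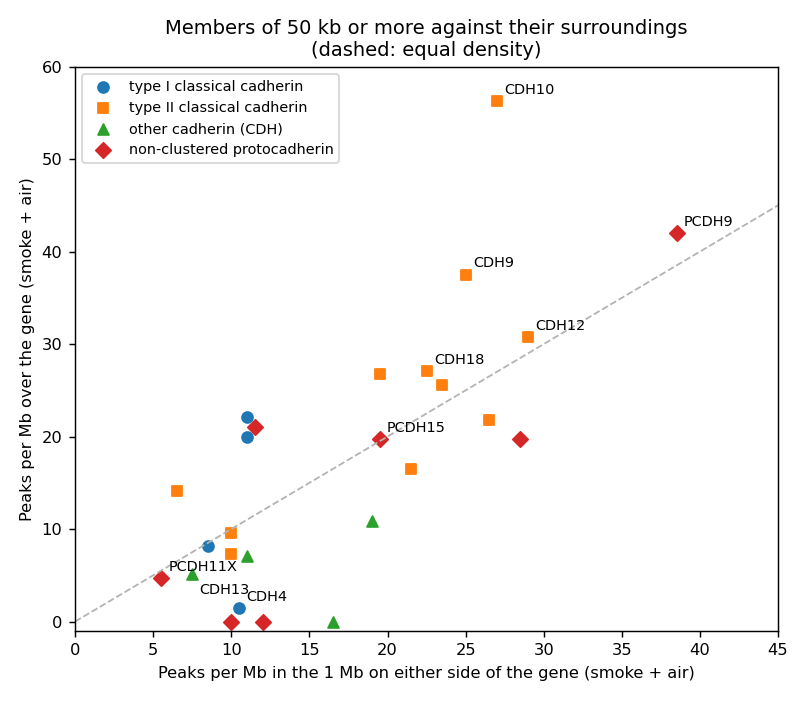
Peaks per Mb over the gene (y axis) against peaks per Mb in the 1 Mb on either side (x axis), smoke and air added, for 26 genes of 50 kb or more; each point is 1 gene and the dashed line marks equal density. PCDH9 lies at 42.0 and 38.5, CDH13 at 5.10 and 7.50, and CDH10 farthest above the line at 56.3 and 27.0.

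Among the other cadherins and the protocadherins outside the clusters, short genes had few peaks. The counts by gene size given here are over all 36 genes outside the clusters, classical cadherins included. Of these, 4 of 5 genes of 200 to 500 kb had a smoke peak and all 5 an air peak. Among all protein-coding genes of that size 83.1% and 86.5% did. Of 14 genes of 50 to 200 kb, 8 had a smoke and 9 an air peak, against 48.6% and 50.4%. CDH23, the tip-link partner of PCDH15, had 2 smoke peaks and 1 air peak in 419 kb. CDH17, the liver-intestine cadherin gene, had 1 air peak, and CDH16 and CDH26 had none. PCDH7 had 5 smoke and 4 air peaks in 426 kb, and PCDH17 had 1 of each. PCDH18 had 1 air peak and PCDH8 1 smoke peak, whose summit lay within 1 kb of an end of that short gene. PCDH1, PCDH10, PCDH12, PCDH19 and PCDH20 had none. Of the 9 genes under 50 kb outside the clusters, 1 had a smoke peak and 1 an air peak, where 9.24% and 10.7% of all protein-coding genes of that size did.

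The clustered protocadherins lie on chromosome 5 from 140786140 to 141512975. In the alpha and gamma clusters each gene has its own first exon and promoter and is spliced to exons shared by the whole cluster, so the gene spans are nested and 1 peak is counted at many genes. Counted once, 7 smoke and 6 air peaks lay at the 53 genes, 13.8 per Mb (5.56 to 28.5) and 11.9 per Mb (4.35 to 25.8). With a −log10 q of at least 1.3 there were 3 and 5. Counted per gene the same peaks gave 62 and 27. The clusters hold many similar copies, and the treatment of reads with several matches is likewise unknown here.

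The alpha cluster (15 genes) had 3 smoke and 3 air peaks, the gamma cluster (22 genes) 2 smoke peaks and no air peak. For gamma this was 10.8 per Mb (1.31 to 39.2) in smoke and an upper limit of 20.0 per Mb in air, so a difference was not detectable. The 16 beta genes, each with a single coding exon, had 2 smoke and 3 air peaks between them, at PCDHB3, PCDHB4 and PCDHB7, and 13 had none. Across the whole beta stretch, gaps included, there were 5 smoke and 3 air peaks. In the alpha cluster no smoke peak touched an air peak: the smoke summits lay 57.1, 110 and 117 kb from the start of PCDHA1 and the air summits 31.5, 42.4 and 157 kb.

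**Figure D5:**
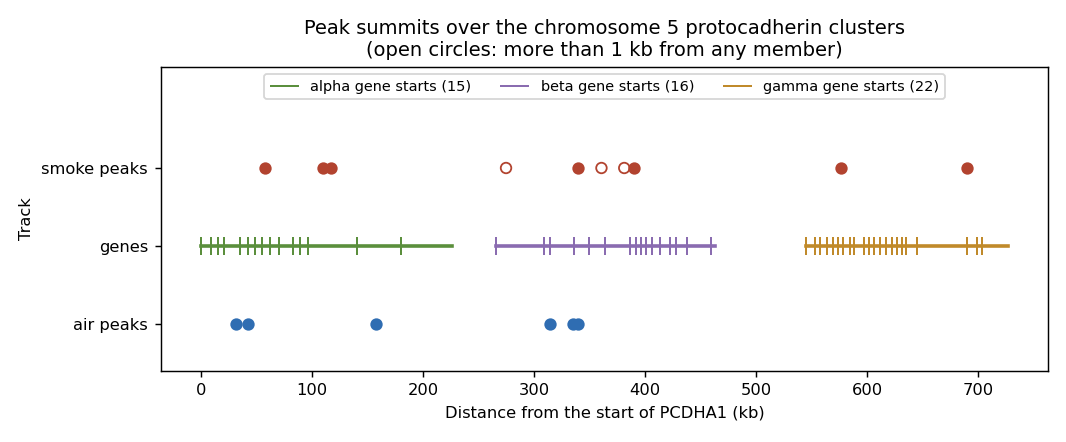
Summits of smoke peaks (red, upper row) and air peaks (blue, lower row) by distance from the start of PCDHA1 in kb (x axis), with gene starts of the alpha, beta and gamma clusters as ticks; open circles are smoke peaks more than 1 kb from any gene counted. Smoke has 7 filled circles and air 6, and no air peak lies over the gamma cluster.

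Peaks over a promoter were rare. RefSeq promoter windows (GRCh38.p14, 250 bases before to 50 after a gene start) were matched for 70 of the 89 genes. A smoke peak overlapped 1 of them, PCDHGC3, and an air peak 1, PCDHB3, where 0.366% and 0.442% of protein-coding genes with a window had one. Their 250 bases before the gene start are shown because, of the 70 genes with a window, only these had one under a listed peak. The other 19 genes had no window and were not checked. Both are on the + strand, PCDHB3 at chr5:141100223-141100472 and PCDHGC3 at chr5:141475716-141475965, with the bases inside the peak in capitals.
PCDHB3: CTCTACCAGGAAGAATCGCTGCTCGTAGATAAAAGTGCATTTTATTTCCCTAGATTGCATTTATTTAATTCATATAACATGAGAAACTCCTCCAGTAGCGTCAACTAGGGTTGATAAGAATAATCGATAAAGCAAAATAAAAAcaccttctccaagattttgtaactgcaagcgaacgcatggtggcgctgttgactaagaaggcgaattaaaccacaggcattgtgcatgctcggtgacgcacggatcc
PCDHGC3: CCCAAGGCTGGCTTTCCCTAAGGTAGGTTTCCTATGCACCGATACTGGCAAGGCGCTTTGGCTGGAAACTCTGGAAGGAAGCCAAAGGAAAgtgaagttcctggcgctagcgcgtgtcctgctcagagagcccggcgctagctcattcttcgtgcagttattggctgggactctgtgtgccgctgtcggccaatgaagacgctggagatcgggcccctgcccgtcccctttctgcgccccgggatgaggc
The air peak at PCDHB3 (chr5:141100103-141100365, fold 3.83, −log10 q 1.502) covered 143 of these bases, with its summit 252 bp before the gene start. The smoke peak at PCDHGC3 (chr5:141475510-141475806) covered 91 of them, with its summit 192 bp before the start. It was weak (fold 2.79, −log10 q 0.721). Most promoters of the clusters are known for an element with the core CGCT that is associated with CTCF binding. These letters, searched on both strands and counted with overlaps, occurred 4 times in the PCDHB3 bases, 2 of them in the peak, and 6 times in those of PCDHGC3, 1 of them in the peak. They were present in 50 of 52 windows of the clusters and in 64.8% of all 35116 windows in the table, each over the same 250 bases. Such a match is a description and not a binding site.

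Peak summits within 1 kb of either end of the gene were found at PCDHB4, PCDHB7, PCDHGC3 and PCDH8 in smoke and at PCDHA6, PCDHB3, PCDHB4 and CDH11 in air. That is 4 of 89 genes in each list, where 2.01% and 2.61% of all protein-coding genes had one. At PCDHA6 the air summit lay 617 bp inside the gene. PCDHB3 (3.355 kb), PCDHB4 (3.81 kb), PCDHB7 (3.74 kb) and PCDH8 (5.75 kb) are short genes, so that much of their span lies within 1 kb of an end.

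Overlap between smoke and air was confined, among these 89 genes, to PCDH7 and PCDHB4, where 0.614% of all protein-coding genes held an overlapping pair. At PCDH7 a smoke peak (chr4:30837066-30837363, fold 4.30) and an air peak (chr4:30836777-30837271, fold 3.48) shared 206 bp. At PCDHB4 a smoke peak (chr5:141125504-141125658, fold 4.84, −log10 q 2.11) and an air peak (chr5:141125227-141125527, fold 4.06, −log10 q 1.502) shared 24 bp near the end of the gene. PCDHB4 also had an air peak with its summit 523 bp before its start, and so 3 peaks at a gene of 3.81 kb. Overlap was as rare as in the lists at large: 1.74% of the smoke peaks (0.211 to 6.14) and 1.79% of the air peaks (0.217 to 6.30) over these genes, against 1.58% and 1.41% of all listed peaks. None of the long genes held an overlapping pair, where 10.5% of all 315 genes of 500 kb or more did. The median distance to the nearest peak of the other list was 19.3 kb for smoke peaks and 24.0 kb for air peaks.

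By the authors' values the peaks over these genes were like those of the whole lists. The median fold was 3.76 in smoke, the same as for the whole list, and 4.06 in air against 3.93. A q of 0.05 or lower was reached by 51 of 115 smoke peaks (44.3%, 35.1 to 53.9) and 76 of 112 air peaks (67.9%, 58.4 to 76.4), against 44.4% and 60.4% of the lists. The smoke peaks over these genes, like those of their whole list, were thus mostly above that q. In PCDH15 3 of 17 smoke peaks and 12 of 19 air peaks reached it, and in CDH13 none of 3 and 2 of 3. The lists were closer in the other peak-rich genes. The counts were 11 of 21 and 11 of 18 in PCDH9, 9 of 17 and 10 of 17 in CDH12, and 8 of 16 and 11 of 14 in CDH18. Other strong air peaks lay at PCDH9 (chr13:66424146-66424558, fold 5.21, −log10 q 2.57) and, tied at a −log10 q of 2.49, at PCDH9, PCDH15, CDH11, PCDH11X and CDH18.

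Relatives and partners of these genes, 40 in 4 lists, were counted the same way. At least 1 smoke peak lay at 18 of the 40 and at least 1 air peak at 18, and 16 had both, but the lists differ in gene size. All 5 genes of 500 kb or more and both of 200 to 500 kb had peaks of both lists. Of 17 genes of 50 to 200 kb 8 had a smoke and 7 an air peak, and of 16 under 50 kb 3 and 4 did. The shares over all protein-coding genes were 96.5% and 98.4% at 500 kb or more, 83.1% and 86.5% at 200 to 500 kb, 48.6% and 50.4% at 50 to 200 kb and 9.24% and 10.7% under 50 kb. Of 15 catenins and other adherens junction partners, 9 had peaks of both lists, 1 smoke peaks alone and 1 air peaks alone, where 14.6%, 9.55% and 11.2% of all protein-coding genes did. Of these 15, 3 span 500 kb or more. CTNNA2, the alpha-catenin gene of neurons, had 21 smoke and 33 air peaks in 1463 kb, CTNNA3 had 17 and 21, and CTNND2, the delta-catenin gene of neurons, had 6 and 16. AFDN, encoding afadin, which links nectins to actin, had 2 of each. Of 9 FAT, Dachsous and CELSR genes 5 had peaks of both lists, led by FAT3 with 8 smoke and 10 air peaks. Of 7 desmosomal cadherin genes 1 had both, 1 smoke alone and 1 air alone. Of 9 cadherin-related and calsyntenin genes, RET included, only CLSTN2 had peaks, 3 of each list.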

How the data were processed

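Peak lists in the 10-column narrowPeak layout were used, 1 for smoke and 1 for air. Tools named per the submitters' processing notes are Bowtie2, MACS and MACS2, with the builds hg38 and mm10; their versions and settings are unknown here. The deposited fold is the authors' enrichment ratio of a peak, and the −log10 p and −log10 q of each peak, as deposited, come from their peak caller. The deposited score is a whole number of about 10 times the −log10 p and was not used further. Peak numbers ran to 134206 in smoke and 230215 in air, above the listed rows, so the lists hold a selection by an unstated filter.

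Gene spans came from the GRCh38.p14 gene table and carry no exons; strands came from the RefSeq promoter table. Peaks were counted at 1 bp of overlap with each span extended by 1 kb (Python 3.11.15, pandas 2.3.3), each peak once over merged spans. Counting was checked on simulated data. The genes and lists were chosen with earlier results of these data known. Named were all type I cadherins, genes of 500 kb or more, the 12 genes with most peaks, genes with gene-end or overlapping peaks, the 5 strongest peaks per list, and at most 4 genes of each related list; further single genes were picked once their values had been seen. Alternatives covered gene extension, summit placement, peak thresholds, list sizes and the choice of genes. Groups were taken from the treatment labels; the 1 input library was not analysed here.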

Additional observations from a re-analysis of the deposited data

How the results depend on the processing

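Extending spans by 0 or 3 kb, placing peaks by summit, equal list sizes, leaving out PCDH9 and, added after the data were examined, leaving out PCDH11Y moved none of the values they were run on beyond their interval or by more than 1.5 times. Of 103 alternative values 66 stayed within these limits and 37 moved, all under stricter peak thresholds or another choice or counting of genes. The figures that follow give smoke, then air. With a −log10 q of at least 1.3, 27 and 36 genes had a peak, so that the order of smoke and air turned from 54 and 38, density was 4.09 and 6.09 per Mb over all 89 genes, 5.74 and 7.91 over classical cadherins and 3.68 and 5.70 over long genes, and the clusters kept 3 and 5 peaks, turned from 7 and 6. With a −log10 q of at least 2, 10 and 18 genes had a peak, densities were 1.68 and 2.32, 2.97 and 3.36, and 1.42 and 2.49 per Mb in the same order, and the clusters kept 1 and 1. With a fold of at least 5, 5 and 7 genes had a peak, densities were 0.561 and 0.802, 1.38 and 0.989, and 0.475 and 0.950, and the clusters kept 0 and 0. The smoke share of peaks over the 89 genes was 40.2%, 42.0% and 41.2% at these 3 thresholds, where it was 39.5%, 38.0% and 33.9% of the whole lists. The shares of all protein-coding genes with a peak were 14.4% and 19.3% at the first threshold and were not counted at the others. Densities over all protein-coding genes were not counted at any of the 3. The whole lists kept 10637 and 16307 peaks at the first threshold, 4144 and 6757 at the second and 1373 and 2677 at the third. The lower counts and densities here thus cannot be told apart from the loss of peaks across the lists. Without the chromosome 5 clusters 19 and 22 genes had a peak. Type I cadherins alone had 1.73 and 4.34 peaks per Mb, with CDH4 as most of their span. Counted once per gene, cluster peaks numbered 62 and 27. No paired analysis was possible because each group has 1 library, and no replicate could be left out. Unknown depth limits every count: a weak peak in one list can be missing from the other for lack of reads.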
